A study of Mus musculus with 3 samples.

Results

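GLI3 binding was examined around 9 Sox genes in mouse forelimb buds of embryonic stage E10.5. They were Sox4, Sox11 and Sox12 of the SoxC subfamily, Sox1 and Sox2 of SoxB1, Sox8 and Sox10 of SoxE, and Sox17 and Sox18 of SoxF. A listed peak was assigned to a gene when its summit lay within 100 kb of an annotated transcription start site (TSS) of that gene. Of 17149 listed peaks, 45 met this rule, 16 near the 3 SoxC genes and 29 near the other 6 genes. No peak was near more than 1 of these genes. The rule used position alone and no measured value of any peak, but the genes were chosen with earlier results of these data known.

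Sox genes encode transcription factors that bind DNA through a high mobility group box related to that of Sry. SoxC factors act in the progenitors of many organs, limb mesenchyme and neurons among them, and are known to support cell survival with overlapping roles. SoxB1 factors maintain pluripotent and neural progenitor cells, Sox8 and Sox10 act in neural crest and its derivatives, Sox17 in endoderm and endothelium, and Sox18 in blood and lymphatic vessels. GLI3 is a zinc finger transcription factor of the Hedgehog (HH) pathway that, without HH signal, is processed into a repressor, and it binds a consensus that all GLI factors share.

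ChIP-seq libraries came from forelimb buds of embryos with 32 to 35 somites on a mixed strain background, whose endogenous Gli3 allele carries a FLAG tag at the N terminus, although the genotype label reads wild type. The GLI3 ChIP was done in 2 replicates, with the buds of 2 litters in a reaction, and set against 1 input library, made from chromatin that was not precipitated. Whole buds were dissociated, so all cell types of the bud were pooled, and the cells in which a site was bound cannot be told apart. Expression was not measured, so the mesenchymal, neural or endothelial label of a gene could not be checked against markers. The authors' 1 peak list gives for each peak a false discovery rate (FDR) and a maximum log2 fold enrichment over input, and nothing per replicate. No value below therefore carries a replicate error, no test over samples was possible, and exact library depths are not in the list, the study's methods stating only a minimum. An FDR under 0.05, the limit the study uses, held for 7282 listed peaks (42.5%).

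The sequences that carry a GLI consensus match near these genes are shown first. In the window searched, 5 of the 45 peaks had one (11.1%, 95% Wilson interval 4.84 to 23.5), beside 17.9% of all listed peaks, a share within that interval. The interval treats peaks as independent, although some windows overlap and 2 of the 5 held the same sites. Each summit and the 250 bp to either side of it were searched for GACCACCCA, the GLI consensus, and for TGGGTGGTC, its reverse complement, allowing 1 mismatch, and the match is in capitals with 10 flanking bases on each side (GRCm38.p6). The exact consensus lay 76 bp from the summit of the Sox8 promoter peak, on the minus strand at chr17:25571274-25571302, which is the strand of Sox8. A match with the substitution A5G, counted from the 5′ end of the consensus, lay in the peak at the start of Lmf1, upstream of Sox8, at chr17:25579054-25579082 on the plus strand. Upstream of Sox18, 2 matches with A5T stood 26 bp apart at chr2:181674335-181674389 on the plus strand, and the windows of 2 neighbouring peaks held both, although the pair lay between the called peaks and in neither of them. The last match, with A2T, belonged to a peak 25673 bp downstream of the Sox18 TSS, on the minus strand at chr2:181646152-181646180.
Sox8 promoter: gcctccgccaGACCACCCAggcccgcccg
Lmf1 start near Sox8: cgctaggagaGACCGCCCAgagagggcgt
Sox18 upstream pair: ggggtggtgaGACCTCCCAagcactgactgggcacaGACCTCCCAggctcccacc
Sox18 downstream: caaggtctgtGTCCACCCAaatagggaaa

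None of the 16 SoxC peaks had a match, which by the rule of 3 counts allows a share of up to 18.8%, above the 17.9% of the list, so no difference from the list was detectable with 16 peaks. The highest-ranked peaks of Sox11, Sox12 and Sox17 are shown as examples of strong peaks without one, together with the only peak of Sox4. Each line is the plus strand over 121 bp centred on the summit, with CpG dinucleotides in capitals. They lie at chr12:27343352-27343472, chr2:152411167-152411287, chr1:4571902-4572022 and chr13:28958032-28958152, all outside annotated exons. The Sox17 window held 10 CpGs, Sox11 9, Sox12 5 and Sox4 4.
Sox11, rank 1105: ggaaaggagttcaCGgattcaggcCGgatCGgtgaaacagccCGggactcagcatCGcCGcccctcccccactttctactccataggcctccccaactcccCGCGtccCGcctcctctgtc
Sox12, rank 183: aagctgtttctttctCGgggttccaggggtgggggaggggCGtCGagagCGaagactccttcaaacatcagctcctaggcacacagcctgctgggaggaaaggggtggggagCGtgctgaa
Sox17, rank 1479: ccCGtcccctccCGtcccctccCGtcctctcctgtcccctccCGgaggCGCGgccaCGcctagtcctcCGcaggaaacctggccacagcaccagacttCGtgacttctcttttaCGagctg
Sox4, rank 10093: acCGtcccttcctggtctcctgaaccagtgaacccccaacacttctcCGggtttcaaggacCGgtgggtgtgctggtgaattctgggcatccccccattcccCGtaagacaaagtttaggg

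Every one of the 9 genes had a listed peak within 100 kb, against 71.9% of 21938 protein-coding genes. All but Sox4 had a peak with an FDR under 0.05, against 53.9% of protein-coding genes. In all, 24 of the 45 peaks had an FDR under 0.05 (53.3%, 95% Wilson interval 39.1 to 67.1), compared with the 42.5% of the whole list. Sox1 and Sox12 had 9 listed peaks each, Sox11, Sox8 and Sox18 had 6, Sox2 had 4, Sox10 had 3, and Sox4 and Sox17 had 1. With an FDR under 0.05, Sox12 had 6, Sox18 5, Sox11 4, Sox1 and Sox8 3, Sox2, Sox10 and Sox17 1, and Sox4 none. The median over the 9 genes was 6 listed peaks, beside 2 over all protein-coding genes (interquartile range 0 to 4). Because the 9 genes were chosen with earlier results known, these shares and medians only describe them, and no test was made.

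**Figure D1:**
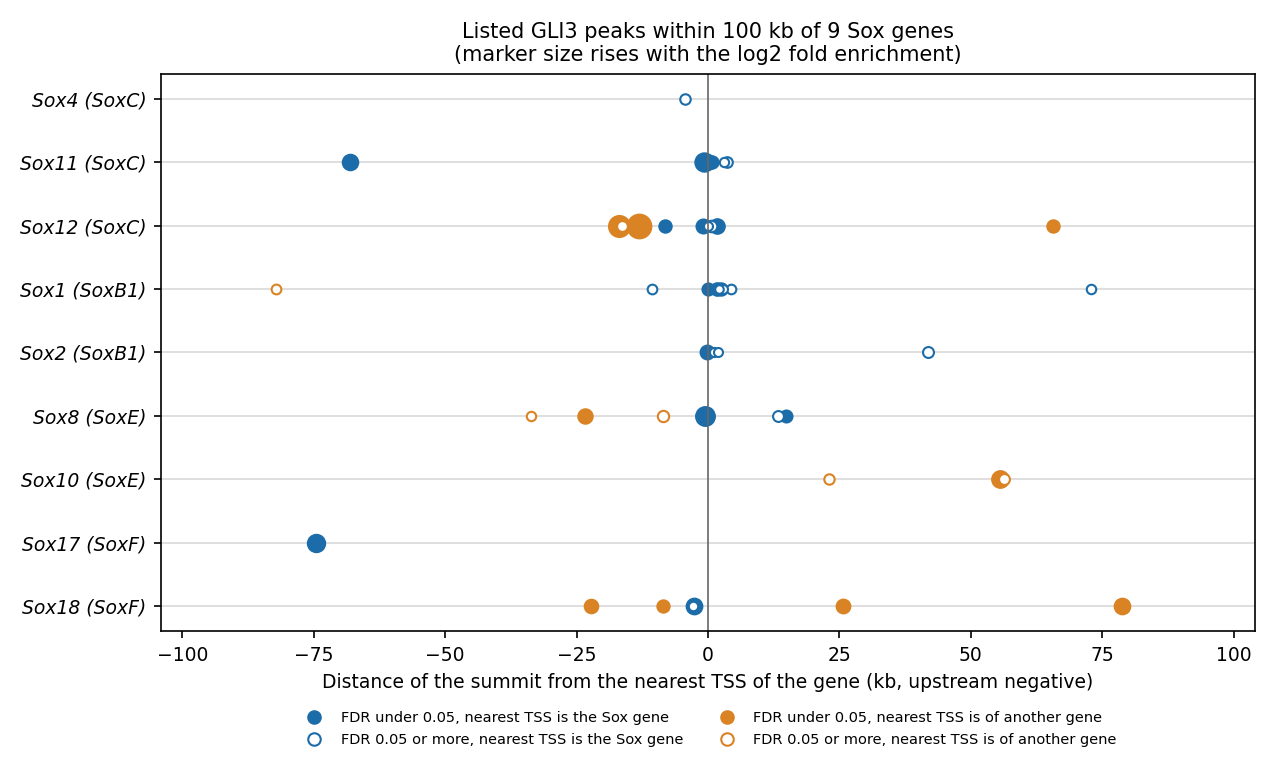
Position of all 45 listed peaks relative to the nearest TSS of their Sox gene, in kb with upstream negative. Filled markers have an FDR under 0.05, blue markers have the Sox gene as nearest protein-coding TSS and orange ones another gene, and marker size rises with the log2 fold enrichment. Peaks of Sox11, Sox1 and Sox2 crowd at the TSS, while those of Sox10 and 4 of 6 at Sox18 are orange and lie at other genes.

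The SoxC genes were compared with the neural and endothelial genes to ask whether mesenchymal Sox loci hold more GLI3 peaks. The SoxC genes had 1, 6 and 9 listed peaks, a median of 6, and the other 6 genes had 1 to 9, a median of 5. The groups overlapped from end to end, so this difference of 1 peak did not separate them. Counting only peaks with an FDR under 0.05, the medians were 4 for SoxC (range 0 to 6) and 2 for the others (range 1 to 5), and again the groups overlapped. Sox4 and Sox12 stood at opposite ends of the SoxC group. Without Sox12 the difference of the medians of listed peaks was -1.5, and it was 0 when Sox11, Sox2, Sox10 or Sox17 alone was left out. Of the SoxC peaks, 10 of 16 had an FDR under 0.05 (62.5%, 38.6 to 81.5). Of the other peaks, 14 of 29 did (48.3%, 31.4 to 65.6). By gene, the SoxC counts were 0 of 1 at Sox4, 4 of 6 at Sox11 and 6 of 9 at Sox12. These intervals treat peaks as independent, and the peaks cluster at few genes, so the intervals do not compare the groups.

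**Figure D2:**
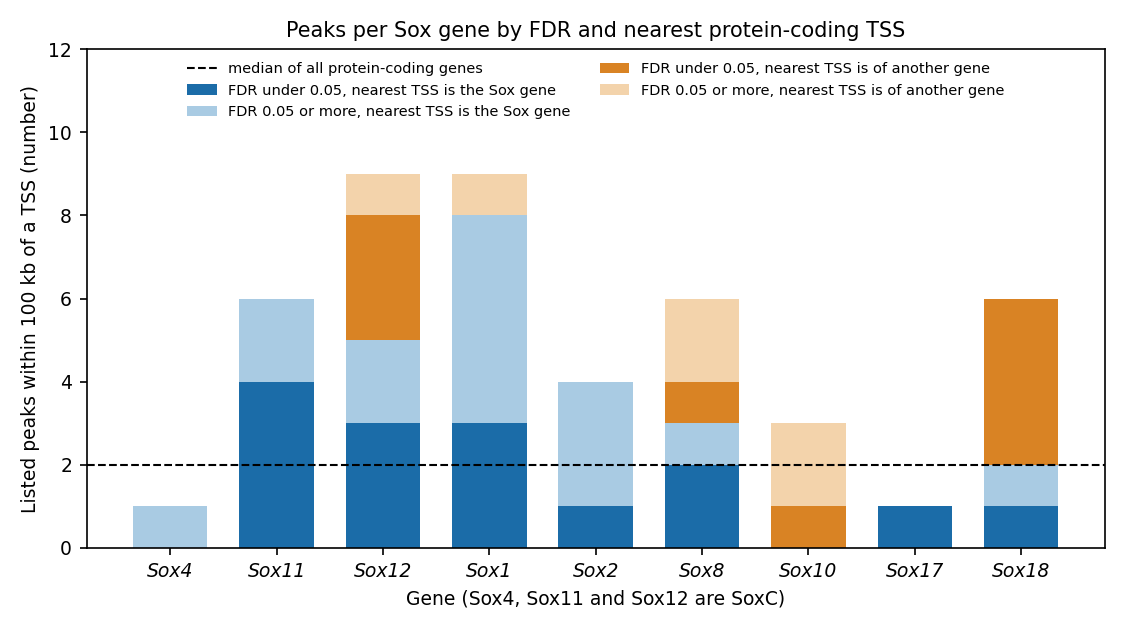
Listed peaks within 100 kb of each Sox gene, stacked by FDR (dark, under 0.05; light, 0.05 or more) and by whether the nearest protein-coding TSS is that of the Sox gene (blue) or of another gene (orange). The dashed line is the median of all protein-coding genes, 2, which 7 of the 9 genes exceed. The SoxC genes span 1 to 9, the same range as the other genes.

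Sox11, a SoxC gene of neural and mesenchymal progenitors (chr12:27334264-27342574, minus strand), had peaks both at its promoter and over its single exon. The best of them (rank 1105, chr12:27343150-27343549) lay 838 bp upstream of the TSS with a log2 fold enrichment of 3.31. A peak 267 bp inside the gene reached 2.64 (rank 4017, FDR 0.00417), and the peak 852 bp inside reached 2.39 (rank 6294, FDR 0.0209). The other peaks in the gene were in its UTR, 3142 and 3617 bp from the TSS, with log2 values of 1.96 and 2.16 and an FDR above 0.05. The only Sox11 peak away from the gene was intergenic, 68168 bp upstream (rank 2537, chr12:27410550-27410849, log2 2.88). Sox11 thus had 5 peaks within 5 kb of its TSS, a number reached by 0.971% of protein-coding genes. Only 3 of the 5 had an FDR under 0.05, and the 5 kb distance was chosen after values were seen. No other protein-coding gene starts within 100 kb of it, and all 6 peaks had Sox11 as the nearest protein-coding TSS.

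Sox12, the third SoxC gene, often active together with Sox4 and Sox11 (chr2:152393611-152398063, minus strand), had the strongest peaks of the set, but they were not at its own start. The peak ranked 183, with a log2 fold enrichment of 4.12 (chr2:152411050-152411799), was intergenic, 13164 bp upstream of Sox12 and 3800 bp from the TSS of Zcchc3. Zcchc3 encodes a zinc finger protein that binds nucleic acids. The peak ranked 491 (log2 3.71) had its summit in the UTR of Zcchc3, 125 bp from that TSS. Another peak with an FDR under 0.05 stood 80 bp from the TSS of Rbck1, which encodes a subunit of a linear ubiquitin ligase (rank 5992, log2 2.42). A further peak nearest to another gene, 685 bp from the TSS of Zcchc3, had a log2 value of 2.18 (rank 9303, FDR 0.143). The peaks nearest to Sox12 itself all had lower values than those ranked 183 and 491. A promoter peak 874 bp upstream had a log2 value of 2.66 (rank 3871, FDR 0.00228), a peak in the UTR 1754 bp downstream had 2.75 (rank 3253, FDR 0.00113), and an intergenic peak 8154 bp upstream had 2.42 (rank 6102). The peak 6 bp from the TSS was the weakest near Sox12, at 1.91 (rank 14442, FDR 0.782), and the peak 519 bp inside the gene had 2.29 (rank 7668, FDR 0.0704). Together, 5 of its 9 peaks had Sox12 as the nearest protein-coding TSS.

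Sox4, the remaining SoxC gene, known for roles in heart, neural and mesenchymal progenitors (chr13:28948919-28953713, minus strand), had the weakest best peak of the 9 genes within 100 kb. Its single peak (chr13:28958050-28958249) was intergenic, 4379 bp upstream of the TSS, with a log2 fold enrichment of 2.13, rank 10093 and an FDR of 0.233. It was the only gene of the set whose best peak did not pass the FDR limit. No listed peak overlapped its promoter, the window from 2 kb before to 1 kb after a TSS.

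**Figure D3:**
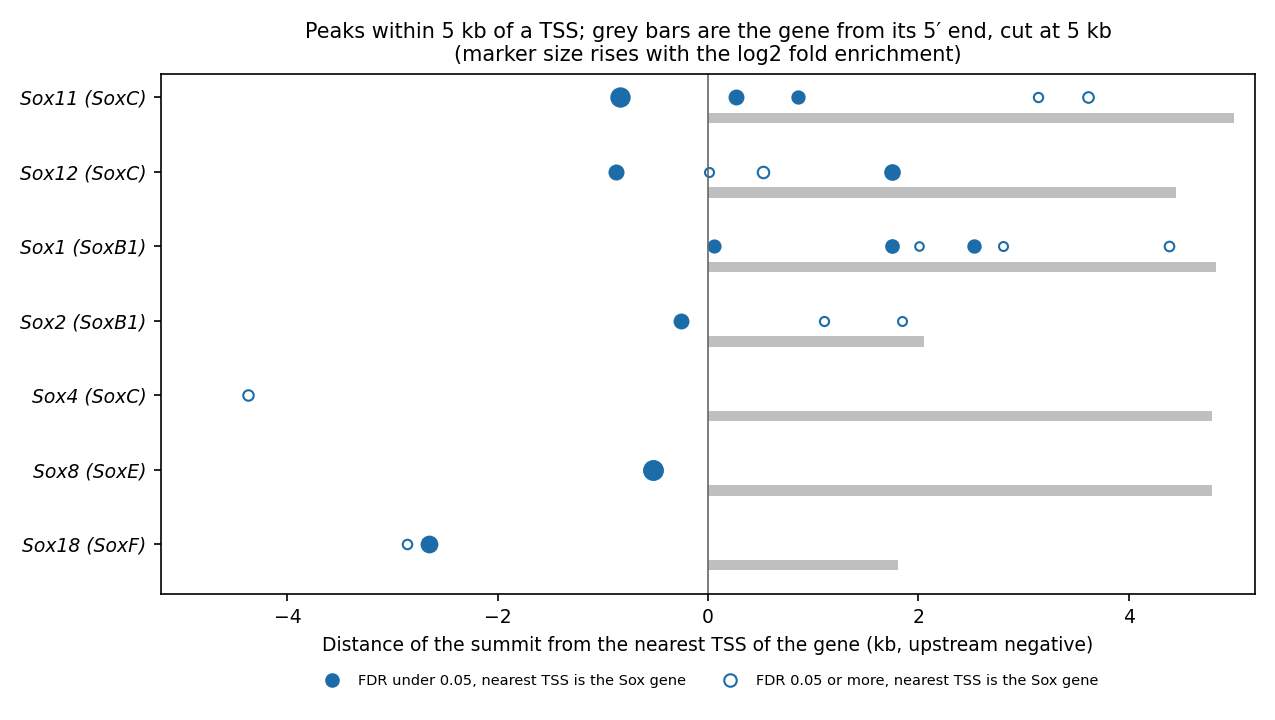
Peaks with a summit within 5 kb of a TSS for the 7 genes that have any, with distance in kb on the horizontal axis, upstream negative, and the gene body as a grey bar from its 5′ end. Filled markers have an FDR under 0.05 and marker size rises with the log2 fold enrichment. Sox11 and Sox1 hold 5 and 6 peaks in this range, and at Sox1 all lie inside the gene, while Sox8 and Sox4 have 1 each and both lie upstream.

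Of the neural genes, Sox1, an early marker of neuroectoderm (chr8:12395295-12400126, plus strand), had as many listed peaks as Sox12 but at lower enrichment. Its 3 peaks with an FDR under 0.05 were 62, 1747 and 2527 bp downstream of the TSS and ranked 6552, 5653 and 6151, with log2 values of 2.37, 2.45 and 2.41. The other 6 had log2 values from 1.85 to 2.02, below the median of all listed peaks (2.23). Within 5 kb, a distance chosen after values were seen, Sox1 had 6 peaks, 3 of them with an FDR under 0.05. Among protein-coding genes, 0.533% had as many listed peaks in that distance. All 6 Sox1 peaks within 5 kb lay inside the transcribed region, in coding sequence or UTR. That region is also covered by an intron of a noncoding transcript that overlaps Sox1 on the same strand.

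Sox2, which maintains pluripotent and neural progenitor cells (chr3:34650405-34652461, plus strand), had 1 peak with an FDR under 0.05. It lay 258 bp upstream of the TSS (rank 4014, chr3:34649900-34650249, log2 2.64, FDR 0.00417). The peaks in its UTR, 1107 and 1847 bp downstream, had log2 values of 1.93 and 1.91 and an FDR over 0.7. An intergenic peak 41852 bp downstream ranked 8894 (FDR 0.133). The Sox2 promoter peak and the Sox11 peak ranked 4017 had the same listed enrichment, log2 2.64.

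The SoxE genes differed from each other. Sox8, of neural crest and early gonad (chr17:25565892-25570686, minus strand), had a strong promoter peak, 526 bp upstream (rank 953, chr17:25570700-25571599, log2 3.39, 900 bp long), in an intron of a noncoding antisense gene. This was the only peak of the 45 with the exact GLI consensus (2.22%, beside 2.17% of the list), in the sequence shown above. The peak ranked 3453 (log2 2.72) was in an intron of Lmf1, which encodes a lipase maturation factor, 23436 bp upstream of Sox8. The third with an FDR under 0.05 lay 14872 bp downstream of the TSS (rank 6714, log2 2.36), in an intron of a noncoding RNA gene. The remaining 3 had log2 values from 1.97 to 2.26, and the highest of these stood 27 bp from the Lmf1 TSS with the A5G match.

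Sox10, which specifies neural crest, glia and melanocytes (chr15:79154908-79165240, minus strand), had no peak at its promoter and none whose nearest protein-coding TSS was its own. Its only peak with an FDR under 0.05 was 8 bp from the TSS of Micall1, a gene of endocytic recycling, 55502 bp downstream of the Sox10 TSS (rank 1732, chr15:79108450-79109249, log2 3.07). Both other peaks (ranks 9088 and 10469, log2 2.19 and 2.12) overlapped promoters of neighbouring genes too. The values near Sox10 therefore belong to positions at other genes, and the rule by distance alone does not tell which gene a peak acts on.

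Of the endothelial genes, Sox17 (chr1:4490931-4497354, minus strand) had a single peak, far from the gene. It was intergenic, 74608 bp upstream (rank 1479, chr1:4571750-4572199, log2 3.16), and Sox17 was still the nearest protein-coding TSS. Counting genes of every type, the nearest TSS was of a noncoding gene 14290 bp away. Although Sox17 and Sox4 each had 1 peak, the log2 values were 3.16 and 2.13.

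Sox18, a regulator of lymphatic and vascular endothelium (chr2:181669836-181671640, minus strand), had 6 peaks in a region with 10 other protein-coding genes. The strongest was 2657 bp upstream, just outside the promoter window (rank 2388, chr2:181673850-181674299, log2 2.92), and the pair of A5T matches stood 52 and 78 bp from its summit, beyond the end of the called peak. A weak peak (rank 13153, log2 1.98) with its summit 2867 bp upstream had the same pair in its window, also outside the called peak. The other 4, all with an FDR under 0.05, were nearest to other genes. They stood 59 bp from the TSS of Zfp512b (log2 2.90), 3 bp from that of Rgs19, a regulator of G protein signalling (2.59), 138 bp from that of Tcea2, a transcription elongation factor (2.40), and 11067 bp from that of Gm29797 (2.63).

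**Figure D4:**
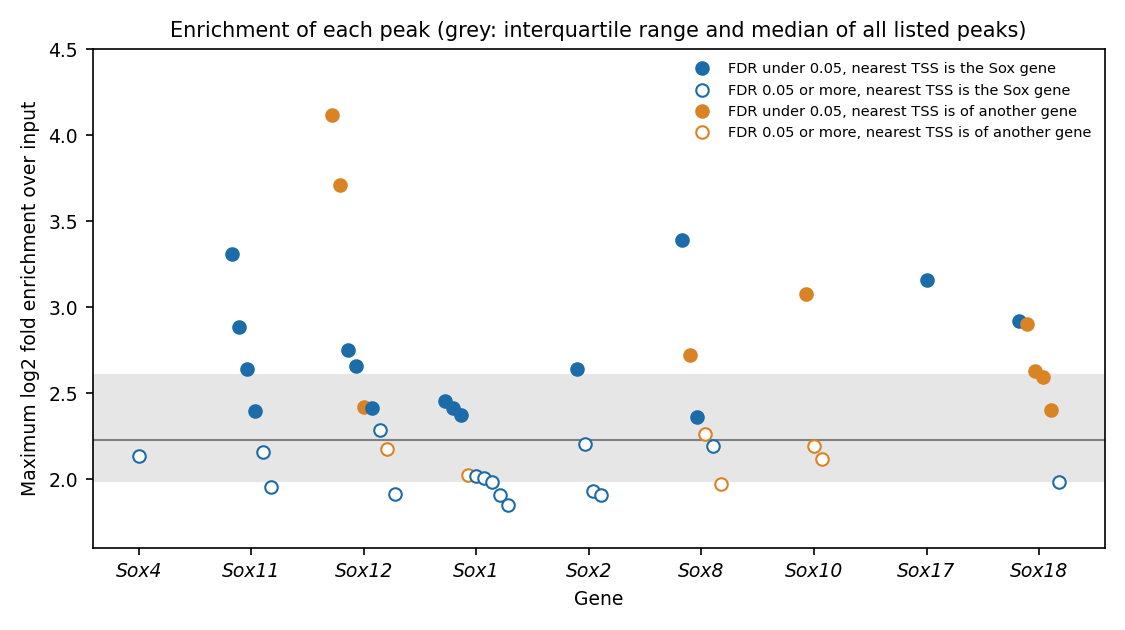
Maximum log2 fold enrichment over input of each of the 45 peaks, by gene. Colours and fills are as in the map of peak positions, the grey band is the interquartile range of all listed peaks (1.99 to 2.60) and the grey line their median (2.23). Both peaks above 3.5 are near Sox12 and are nearest to another gene, and 6 of 9 Sox1 peaks lie below the median line.

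The enrichment of the 45 peaks ranged from 1.85 to 4.12 on the log2 scale, with a median of 2.37, beside 2.23 for all listed peaks. Among those with an FDR under 0.05 the median was 2.65, beside 2.69 for all such peaks. SoxC peaks had a median of 2.42 and peaks of the other genes 2.26. By subfamily the medians were 2.02 for SoxB1, 2.26 for SoxE and 2.63 for SoxF. Of the 7 SoxF peaks, 6 were near Sox18 and 4 of these were nearest to another gene. For scale, the best peaks within 100 kb of the HH targets Ptch1, the HH receptor, and Gli1, a GLI factor induced by the pathway, ranked 2 and 7 with log2 values of 6.05 and 5.76. Of the 45 Sox peaks, 3 ranked in the first 1000 of 17149, close to the share that those 1000 make up of the list.

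A listed promoter peak was present at 5 genes, Sox11, Sox12, Sox1, Sox2 and Sox8, and each of them also had such a peak with an FDR under 0.05. Among all protein-coding genes, 32% had a listed promoter peak and 18% one with an FDR under 0.05. Sox4, Sox10, Sox17 and Sox18 had none. By peak, 9 overlapped the promoter of their Sox gene (log2 median 2.64, 7 with an FDR under 0.05). A further 10 overlapped the promoter of another protein-coding gene (22.2%, 12.5 to 36.3), with a median of 2.41, and 26 neither. Promoter peaks of either kind made up 42.2% (29.0 to 56.7) of the Sox peaks and 51.4% of the list. In 21 of 45 peaks (46.7%, 32.9 to 60.9) the summit lay in an exon of a protein-coding gene, compared with 23.1% of the list. Of the 21, 15 were in the Sox gene itself, at Sox11, Sox12, Sox1 or Sox2, where every summit inside the gene was exonic. The exon share was added after values were seen, and the part that gene structure plays in it was not tested.

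Gene density differed between the loci, and among all protein-coding genes the counts were higher where it was high. Sox4, Sox11, Sox1 and Sox2 had no other protein-coding TSS within 100 kb, Sox17 had 1, Sox8 3, Sox10 8, Sox12 9 and Sox18 10. The 1803 protein-coding genes without such a neighbour had a median of 0 listed peaks, and 12.4% of them had at least 4, as Sox2, Sox11 and Sox1 did. Genes with 9 neighbours, like Sox12, had a median of 3, and genes with 10, like Sox18, a median of 4. Sox10, with 3 peaks, equalled the median of genes with 8 neighbours, and Sox17 that of genes with 1. For 30 of the 45 peaks (66.7%, 52.1 to 78.6) the nearest protein-coding TSS was that of the Sox gene. Over all protein-coding genes, 24.4% of the pairs of a gene and a listed peak within 100 kb were of this kind. That share was not matched for the number of neighbours, so the 2 shares are not like for like. At Sox4, Sox11 and Sox2, which have no such neighbour, all peaks were nearest to the gene, and at Sox1 8 of 9 were. The 30 were 12 of 16 SoxC peaks and 18 of 29 others. Counting only such peaks, the SoxC genes had a median of 5 and the others 2.5, with Sox4 at 1 and Sox1 at 8, so the groups still overlapped. The part that neighbouring genes play in the counts was not tested further.

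**Figure D5:**
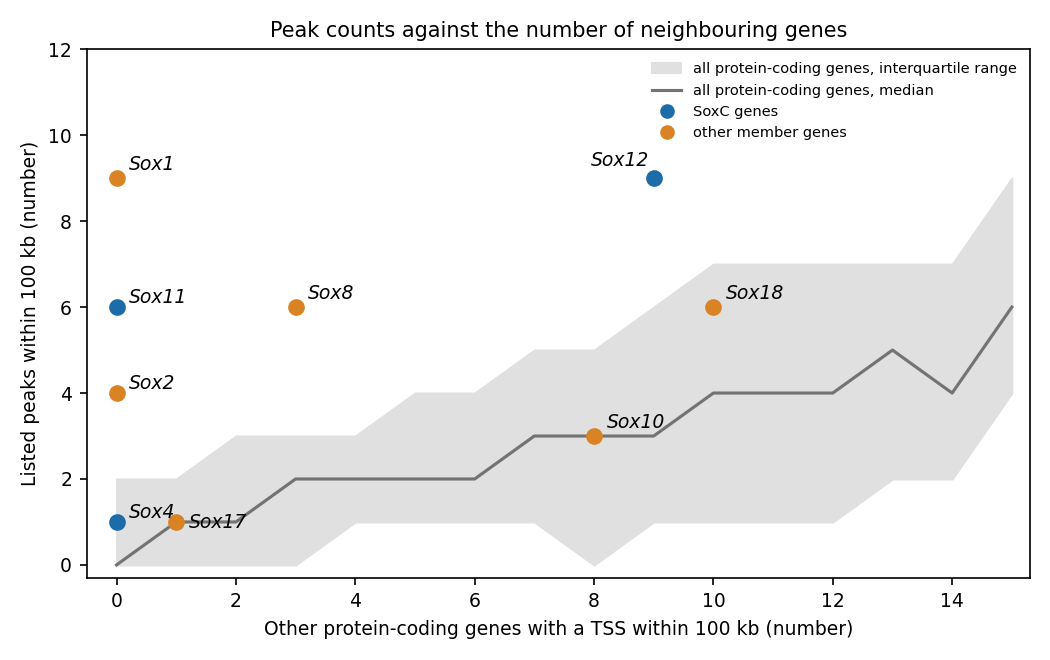
Listed peaks within 100 kb of each Sox gene against the number of other protein-coding genes with a TSS within 100 kb. Blue points are SoxC genes, orange points the other members, the grey line is the median and the band the interquartile range of all protein-coding genes with that number of neighbours. Sox1, Sox11, Sox2, Sox8 and Sox12 lie above the band, and Sox4, Sox17, Sox10 and Sox18 lie within it.

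Median GC and CpG content around the summits stood above the list over all 45 peaks but not in every subfamily, and neither was tested. Over all 45 peaks, the median GC content of these windows, from 250 bp before to 250 bp after the summit, was 61.5%, beside 55.9% for the whole list, and the median ratio of observed to expected CpG was 0.726, beside 0.555. By subfamily, the median GC content was 65.4% for SoxC, 63.3% for SoxF and 57.3% for SoxE, and for SoxB1 it was 52.5%, below that of the list. The median CpG ratio was 0.863 for SoxC, 0.856 for SoxB1 and 0.840 for SoxF, and for SoxE it was 0.343, below that of the list. The median GC content was 67.9% at the promoters of the Sox genes and 54.5% at the 26 peaks outside any promoter, beside 64.3% and 48.5% for promoter and other peaks of the list. Beside the 11.1% of Sox windows with a GLI match, the share was 10.6% in windows 2 kb to either side of all listed summits and 6.67% in windows 2 kb from the Sox summits. All 5 Sox peaks with a match were near Sox8 or Sox18. Searching the called peak in place of the window left 3 of 45 with a match (6.67%), beside 12.8% of the list, since the Sox18 pair lay outside its peaks. No difference from the list in the share of windows was detectable with 45 peaks.

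Windows were also searched for the SOX core, AACAAAG or AACAATG and the reverse complement of either, since Sox factors can act on their own family. It was present in 4 of 45 (8.89%, 3.51 to 20.7), in 14% of the list, in 19.0% of the windows 2 kb from all listed summits and in 24.4% of those 2 kb from the Sox summits. The 4 were near Sox1, with 2 peaks, Sox12 and Sox8. Of these only the Sox8 peak ranked 6714 had an FDR under 0.05. Its match, shown with the core in capitals, was on the plus strand at chr17:25555091-25555117, 238 bp from the summit and outside the called peak. None of the 4 had the core inside the called peak. Searching called peaks instead gave 2 others, both near Sox18 (4.44%, beside 8.41% of the list).
Sox8 downstream: ccctgccttgAACAAAGgaaaaaaaaa

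RefSeq promoter sequences, 250 bases before to 50 after a start (GRCm38.p6), were at hand for 6 of the 9 genes, Sox1, Sox2, Sox4, Sox8, Sox11 and Sox12. Of these, only the Sox11 promoter had a GLI match with no more than 1 mismatch, at chr12:27342768-27342796, shown with the match in capitals. Of 32851 promoters in the RefSeq table, 6.74% had such a match. The Sox11 match lay between the peaks ranked 1105 and 4017, and no listed peak overlapped this promoter sequence.
Sox11 promoter: gcggagtcggGACCAGCCAttggctggtg

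The limit of 100 kb fell in a gap. The farthest peak inside it was 82.2 kb from Sox1 (rank 12276, log2 2.02, FDR 0.438), and the nearest outside was 103.9 kb from Sox12 (rank 16128, log2 1.82, FDR 1). Extending the distance to 250 kb gave 81 listed peaks, 39 with an FDR under 0.05, and 500 kb gave 149 and 71. The median difference between SoxC and the other genes turned to -1.5 at 250 kb and -1 at 500 kb. The best rank changed most at Sox4. Its best peak within 500 kb, 312.6 kb downstream at chr13:28640800-28641449, ranked 55 with a log2 fold enrichment of 4.67, higher than any of the 45 peaks, and Sox4 was the nearest protein-coding TSS. This peak was singled out after its value was seen. It held a GLI match with the substitution A2C, 55 bp from the summit, on the plus strand at chr13:28640998-28641026. Between 100 and 500 kb, Sox4 was the nearest protein-coding TSS of 8 of 13 listed peaks, Sox11 of 3 of 3 and Sox2 of 1 of 5. Sox12, the other SoxC gene, was the nearest of 0 of 21. The counts were likewise 0 of 24 at Sox8, 0 of 22 at Sox10, 0 of 11 at Sox18, 0 of 4 at Sox1 and 0 of 1 at Sox17.
Sox4 distal: cccagcaatgGCCCACCCAcaaagggctg

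The rest of the family gives a setting for these counts. The other 11 Sox genes had 48 listed peaks within 100 kb, 19 with an FDR under 0.05, and a median of 3 per gene (range 0 to 13). Sox3, Sox7 and Sry had none. Sox6 and Sox5, which assist Sox9 in cartilage, had 13 and 8 listed peaks, the best ranking 2180 (log2 2.97) and 3837 (log2 2.66). Their 13 and 12 distinct TSSs were each searched to 100 kb, a wider span than at a gene with 1 TSS, such as Sox11. Sox9, the regulator of cartilage formation, had 7, with the best 1568 bp from its TSS at rank 1668 (log2 3.09). Sox15 had 11, the best ranking 235 (log2 4.03), but also 15 neighbouring protein-coding genes, and none of its peaks was nearest to it. Sox13 and Sox14 had 3 each, Sox21 2 and Sox30 1, with best ranks of 6273, 10635, 11881 and 11196. Of these 11 genes, 5 had a peak with an FDR under 0.05, against 8 of the 9 genes described here, a difference for which no test was made because the genes were chosen with earlier results known.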

How the data were processed

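The study made ChIP-seq libraries with an antibody to FLAG. Alignment with Bowtie2 2.2.5 to mm10 is named in the submitters' processing notes, and CisGenome 2.1.0 as peak caller in the methods. The 1 list was taken as a joint call against input, because the study describes its regions under the FDR limit as called from both replicates. Whether the listed peaks above that limit were called jointly too is not stated. The deposited FDR is the authors' q-value, the deposited enrichment a log2 value, T a score that the authors ranked by, and a −log10 Poisson p-value was deposited too. Lengths were deposited in bp.

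TSSs of all GENCODE M21 transcripts were used, and 5 peaks on unplaced sequence were left out where position counts. Motif windows reached 250 bp to either side of a summit. Promoters ran from 2 kb before to 1 kb after a TSS (overlap of at least 1 bp). Shares carry 95% Wilson intervals, which cover counting over peaks only, and a share of 0 the limit of 3 counts. No test was run. Counting and motif search (Python 3.11.15, numpy 2.4.6, pandas 2.3.3, scipy 1.17.1) were tested on simulated data. Named genes were, by rule, the 9 genes, the other 11 Sox genes, the gene nearest to each peak with an FDR under 0.05 or to a gene's best peak, Ptch1 and Gli1. Members and lists were chosen with earlier results of these data known. The 5 kb distance, the exon share and the comparison by neighbour number were added after values were seen. Alternatives changed distance, FDR, TSS set, window and gene left out.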

Additional observations from a re-analysis of the deposited data

How the results depend on the processing

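Of 63 alternatives over 10 results, 41 stayed within the limits set for a count, share or median, 19 moved and 3 reversed. Those limits were wide. Within them fell 31 listed peaks at an FDR under 0.2, in place of 45, and 16 peaks at an FDR under 0.01, in place of 24. A SOX share of 4.17% at an FDR under 0.05, in place of 8.89%, also did. The TSSs of the basic transcript set and the RefSeq 5′ ends were chosen after seeing the data and moved none of the 4 results they were applied to. Listed peaks rose from 45 to 81 within 250 kb and 149 within 500 kb, and those with an FDR under 0.05 from 24 to 39 and 71. The median difference between SoxC and the other genes, 1 peak, was the least stable. It was 0.5 within 50 kb, -1.5 within 250 kb and -1 within 500 kb, 2 at an FDR under 0.05 and under 0.01, and 2.5 for peaks nearest to the gene itself. Leaving out 1 gene gave 2.5 (Sox4), 0 (Sox11, Sox2, Sox10 or Sox17), -1.5 (Sox12) or 2 (Sox1, Sox8 or Sox18). The share of peaks nearest to a member fell from 66.7% to 37.8% with genes of every type. The median log2 fold enrichment rose from 2.37 to 2.65 at an FDR under 0.05, which follows from the threshold. The exact GLI consensus was in 2.22% of the peaks (2.17% of the list). Searching called peaks only lowered the GLI share from 11.1% to 6.67% and the SOX share from 8.89% to 4.44%.

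No paired analysis was possible because a single list was made from both replicates. For that reason leaving out a replicate could not be run either. Exact library depths are not in the list, and their effect on weak peaks was not tested. With 3 and 6 genes per group, gene counts carry no error.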
